A study of Mus musculus with 6 samples.

Results

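The genes of the MYC and MAX network were examined in epithelial cells of the embryonic small intestine that lack *Tcf7l1*. The 10 members, *Myc*, *Mycn*, *Mycl1*, *Max*, *Mxi1*, *Mxd1*, *Mxd3*, *Mxd4*, *Mga* and *Mnt*, were taken by symbol from the 23366 genes counted. All 10 were found and all passed the filter on low counts. The mutant group comprised 3 libraries with the genotype Shh-cre-egfp:Tcf7l1 lox/lox, in which Cre made from the *Shh* locus deletes floxed sequence of *Tcf7l1* in cells of the *Shh* lineage, including gut epithelium, and the control group comprised 3 libraries of wild type embryos. All were untreated and taken at embryonic day 13.5 (E13.5), and each library was made from 500 living, sorted cells carrying EpCAM, a surface protein of epithelium, with cDNA amplified for 15 PCR cycles. Whether the libraries of a group came from separate embryos or litters was not stated beyond the words biological replicates, so the p-values measure the spread between these libraries. No library carried Cre with *Tcf7l1* intact, so effects of the Cre allele at the *Shh* locus and of the loss of *Tcf7l1* cannot be told apart.

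MYC proteins bind DNA at E-box sequences only as heterodimers with MAX, and then recruit histone acetyltransferases and promote cell growth, ribosome production and cell division. MAX also pairs with the MXD proteins, MXI1 and MNT, which recruit SIN3 and histone deacetylases to the same sequences and repress them, and with MGA, a subunit of a Polycomb complex. *Myc* is a classical WNT target in the intestinal crypt, whereas *Mycn* is known for its role in embryonic progenitors, including those of the nervous system, lung and limb.

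The promoters of *Mycn* and *Max* are shown because these were the members that changed. The sequences are from RefSeq, of the mouse build GRCm38.p6, read 5′ to 3′ on the strand of the gene from 250 bases before its start to 20 bases after it. *Mycn* lies on the minus strand and its promoter spans chr12:12941817-12942086. *Max* also lies on the minus strand, and its promoter spans chr12:76962229-76962498. The capitals mark matches, on either strand, to the E-box CACGTG, the TCF core CTTTGAA or the E2F sequence TTTGGCGC.
Mycn: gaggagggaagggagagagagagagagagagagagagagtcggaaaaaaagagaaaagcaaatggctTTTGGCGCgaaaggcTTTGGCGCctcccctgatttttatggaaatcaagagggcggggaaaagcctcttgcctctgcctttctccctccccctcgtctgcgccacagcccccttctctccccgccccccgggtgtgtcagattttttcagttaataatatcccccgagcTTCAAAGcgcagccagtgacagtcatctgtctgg
Max: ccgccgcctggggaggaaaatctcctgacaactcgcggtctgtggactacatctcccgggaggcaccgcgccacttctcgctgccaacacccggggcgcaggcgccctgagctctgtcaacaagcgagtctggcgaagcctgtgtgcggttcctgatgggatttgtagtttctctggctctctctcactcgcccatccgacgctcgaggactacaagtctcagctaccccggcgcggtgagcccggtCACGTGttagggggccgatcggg

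The *Max* promoter held 1 E-box, which spans its start, and the promoters of *Mxd4* and *Mnt* held 1 each. This hexamer occurs in 6.57% of 32851 promoter windows of this length. The bases G and C made up 64.1% of the *Max*, 59.6% of the *Mxd4* and 71.9% of the *Mnt* promoter, against a median of 52.6% over all windows. The share is therefore not that of promoters of like composition. The *Mycn* promoter held 1 TCF core, 14 bases before its start, which 4.71% of the windows hold, and 2 copies of the E2F sequence, of which 0.463% hold at least 1. TCF cores written CTTTGAT, the E2F sequence TTTCCCGC and the TATA box TATAAA were also searched, on both strands. The first pair was in no promoter of a member, and TATAAA was in that of *Mycl1*. The E2F sequences were added to the search after the *Mycn* promoter had been read, so their share in other promoters is that of letters chosen on this one. The table held promoters for 9 members and not for *Myc*. A match describes these letters and is not evidence that a factor binds.

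Total counts lay between 18216537 and 20397278 per library. *Tcf7l1* had 383 to 508 counts in wild type against 31 to 66 in the mutants (log2 fold change -3.16, Benjamini-Hochberg adjusted p = 4.2e-07 in edgeR). *Xist* had 0 counts in every wild type library and 229 to 424 in the mutants, and the Y-linked *Ddx3y* had 1837 to 2254 in wild type and 0 in every mutant library, so that the sex of the embryos and their genotype cannot be told apart. A gene was called where its adjusted p lay under 0.01, its log2 fold change was 0.5 or more in size and its normalized counts averaged 50 or more. By this rule 8.62% of the 12501 tested genes were called, 2.78% as higher in the mutants and 5.83% as lower, and for 43.0% the groups did not overlap. Of the 10 members, 1 was called higher and 1 lower, 10% each. For 3 of the 10 the groups did not overlap, a smaller share than among all tested genes. At an unadjusted p under 0.05, a count given for the lists of other genes, 18.6% of all tested genes were higher and 21.6% lower.

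Of the MYC family itself, *Mycn* fell in the *Tcf7l1* mutant epithelium, and neither *Myc* nor *Mycl1* was called. *Mycn* (ENSMUSG00000037169, chromosome 12, 12942902 to 12948720 of mm9, minus strand), which encodes N-MYC, had 2059, 2297 and 1538 normalized counts in wild type 1, 2 and 3. In mutant 1, 2 and 3 it had 585, 765 and 907. The highest mutant library lay well under the lowest wild type library. The means were 1965 ± 388 and 752 ± 161 (SD, n = 3), a level 2.61-fold lower (log2 fold change -1.39, SE 0.16, 95% interval -1.71 to -1.06, edgeR adjusted p = 1.1e-05). By p-value *Mycn* ranked 146 among all tested genes. It was called under all 13 alternative settings.

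*Myc* (ENSMUSG00000022346, chromosome 15, 61816946 to 61821929 of mm9, plus strand), which encodes c-MYC, had 6866, 6968 and 7327 normalized counts in wild type 1, 2 and 3, against 8155, 8314 and 6678 in mutant 1, 2 and 3. Mutant 3 lay below every wild type library and the other mutant libraries above all of them, so the groups overlapped. The log2 fold change was 0.13 (SE 0.08, 95% interval -0.04 to 0.30, edgeR adjusted p = 0.25), an interval that stays below the fold of a call. *Mycl1* (ENSMUSG00000028654, chromosome 4, 122672895 to 122679728, plus strand), which encodes L-MYC, had 170, 220 and 157 in wild type and 80.8, 99.04 and 132 in mutant libraries. All mutant libraries were below all wild type libraries, yet the adjusted p of 0.023 from edgeR missed the call (log2 fold change -0.81, SE 0.25, 95% interval -1.34 to -0.29). Over the 13 other settings the adjusted p of *Mycl1* lay between 0.0152 and 0.117.

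*Mycn* and *Mycl1* had the same order of libraries within each group. Wild type 2 was the highest and wild type 3 the lowest wild type library for both genes, and mutant 3 was the highest and mutant 1 the lowest mutant library. *Tcf7l1* itself, with 508, 508 and 383 counts in the wild type libraries, in order of number, against 40, 31 and 66 in the mutants, was also lowest in wild type 3 and highest in mutant 3. Among the mutants *Tcf7l1* was lowest in mutant 2, whereas *Mycn* and *Mycl1* were lowest in mutant 1. Over all genes, wild type 3 differed less from the mutant libraries (chi-square per gene 27.9 to 32.3) than wild type 1 and wild type 2 did (39.0 to 54.2). With 3 libraries in a group this order has no test, and whether it is particular to these genes was not tested.

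**Figure D1:**
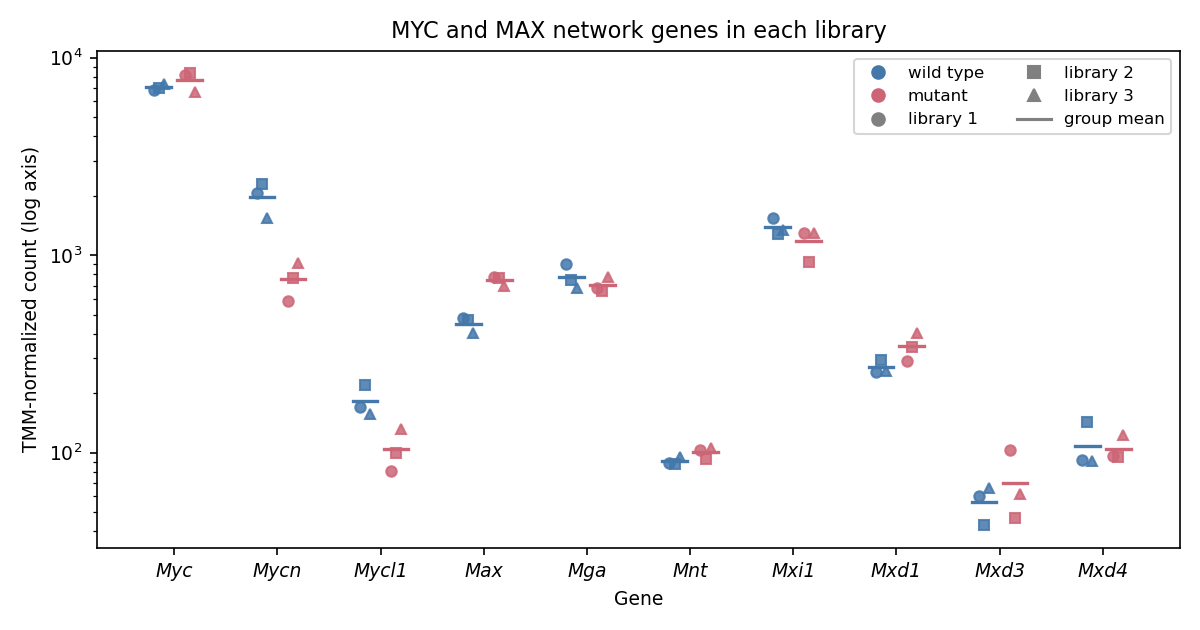
Normalized counts of the 10 members on a log axis, with a point for each of the 3 wild type and 3 mutant libraries and a line at the group mean. The groups are apart for *Mycn*, from 1538 to 2297 against 585 to 907, for *Mycl1* and for *Max*, and overlap for the other genes.

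In CPM per kb of exon (the normalized count as a share of the library, divided by exon length), which makes genes comparable, *Myc* made up most of the MYC family transcripts in every library. Its level was 133 ± 4.56 CPM per kb in wild type and 145 ± 17.0 in mutant libraries. That of *Mycn* was 30.6 ± 6.04 and 11.7 ± 2.51, and that of *Mycl1* 2.31 ± 0.42 and 1.32 ± 0.33. *Mycn* therefore contributed 19.6%, 21.0% and 14.6% of the summed family level in wild type 1, 2 and 3, against 5.55%, 7.00% and 9.96% in the mutants in the same order of number. The sum of the family was 164, 170 and 164 in wild type and 164, 170 and 142 in mutant libraries, so that mutant 3 alone lay below the wild type range. Within each library, *Mycn* stood at 24.8, 27.2 and 17.3 per 100 of *Myc* in wild type and at 5.92, 7.59 and 11.2 in mutants. The ratio of *Mycn* to *Myc* was 2.85-fold lower in the mutants (log2 difference -1.51), with no overlap between groups and an exact two-sided permutation p of 0.1, the smallest that 3 against 3 libraries allow.

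**Figure D2:**
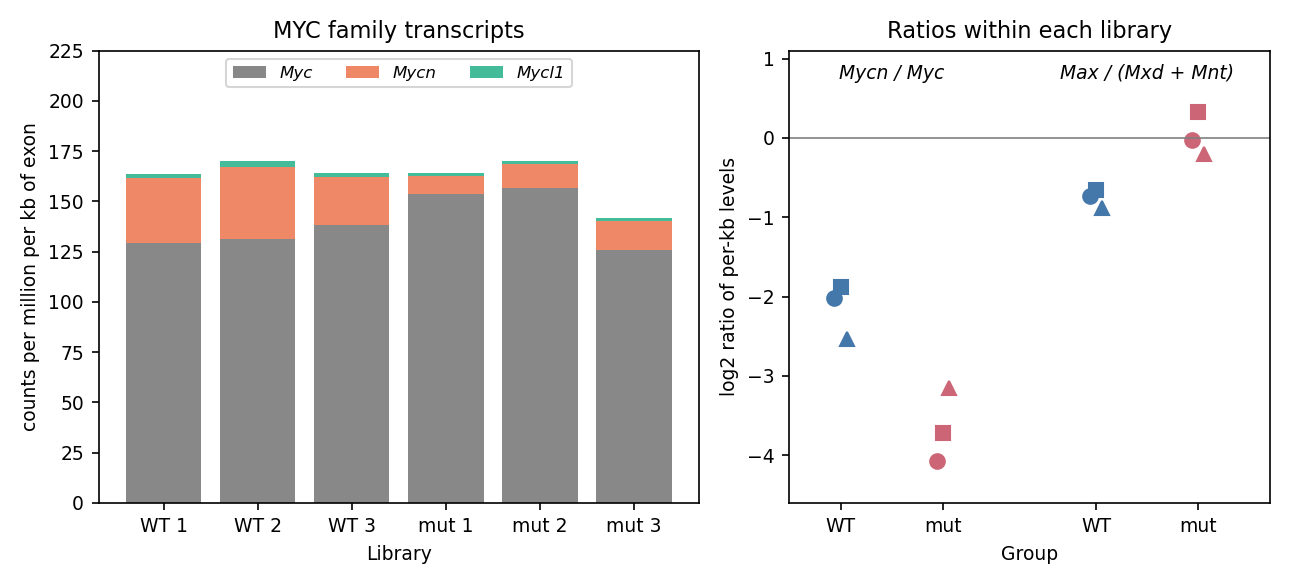
Left, the per-kb levels of *Myc*, *Mycn* and *Mycl1* stacked for each library, in CPM per kb of exon. Right, log2 ratios within each library (circle, square and triangle for libraries 1, 2 and 3), of *Mycn* to *Myc* and of *Max* to the sum of *Mxi1*, *Mxd1*, *Mxd3*, *Mxd4* and *Mnt*; the wild type and mutant libraries are apart in both.

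*Max*, which encodes the shared partner of the network, rose in the mutants. *Max* (ENSMUSG00000059436, chromosome 12, 78038256 to 78063235 of mm9, minus strand) had 481, 467 and 401 normalized counts in wild type 1, 2 and 3, against 771, 769 and 699 in mutant 1, 2 and 3. Every mutant library was above every wild type library, and the spread within each group was small. The means were 450 ± 42.7 and 746 ± 41.0 (SD, n = 3), a level 1.66-fold higher (log2 fold change 0.73, SE 0.13, 95% interval 0.46 to 1.002, edgeR adjusted p = 7.2e-04). It was called under all 13 alternative settings. Genes with short exons were higher in the mutant libraries in general, with a median log2 fold change of 0.10 among the 3958 genes of up to 2736 exon bases and -0.14 among the 3958 of more than 4815. *Max* has 2005 exon bases. With a correction for this trend over exon length its log2 fold change was 0.78. The correction moved the median of all tested genes from -0.04 to 0.09, and relative to that median *Max* stood at 0.77 before it and 0.70 after it.

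*Mycn* and *Max* changed places in the order of levels per kb. In wild type libraries *Mycn* (23.9 to 35.8) was above *Max* (10.2 to 12.3), and in mutant libraries *Max* (17.9 to 19.7) was above *Mycn* (9.10 to 14.1). For each 100 of the summed MYC family level, *Max* stood at 6.93 ± 0.64 in wild type and 12.1 ± 0.52 in mutant libraries.

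Of the repressor partners, 0 were called by edgeR or by DESeq2, and the log2 fold changes had both signs. *Mxi1* (ENSMUSG00000025025, chromosome 19, 53384996 to 53450300), which had the highest level of them, had 1532, 1271 and 1338 normalized counts in wild type and 1299, 924 and 1291 in mutant libraries. Mutant 2 was the lowest library, and the others overlapped (log2 fold change -0.24, SE 0.13, 95% interval -0.50 to 0.03, edgeR adjusted p = 0.18). *Mxd1* (ENSMUSG00000001156, chromosome 6, 86597038 to 86619153), which is known to be induced as cells leave the cell cycle and differentiate, had 257, 294 and 259 in wild type and 291, 341 and 405 in mutants. Mutant 1 lay just under wild type 2, so the groups overlapped. Its log2 fold change was 0.35 (SE 0.17, 95% interval -0.01 to 0.72, edgeR adjusted p = 0.13), and with the length correction it was 0.57 (adjusted p = 0.0172), still not called. Relative to the median of all tested genes these values were 0.40 and 0.49.

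*Mxd3* (ENSMUSG00000021485, chromosome 13, 55426529 to 55431119), a member linked to S phase and proliferating progenitors, had 60.0, 42.9 and 66.5 normalized counts in wild type and 103, 46.9 and 61.9 in mutant libraries. Mutant 1 stood above all the others, and without it the direction turned (log2 fold change 0.32 with all libraries, -0.05 without mutant 1). *Mxd4* (ENSMUSG00000037235, chromosome 5, 34516536 to 34530369) had 91.9, 144 and 90.3 in wild type and 96.3, 94.8 and 123 in mutants, with a log2 fold change of -0.05 (95% interval -0.64 to 0.53). Its highest library was wild type 2, without which the value was 0.20, and the sign also turned without mutant 1 or mutant 2 and with the length correction. Both genes had low counts, down to 44 for *Mxd3* in mutant 2 (exact 95% Poisson interval 32.0 to 59.1, counting error only), and the intervals of both genes still include changes as large as a call.

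*Mnt* (ENSMUSG00000000282, chromosome 11, 74644422 to 74659227), which encodes a broadly expressed MYC antagonist, had 89.1, 87.6 and 95.04 normalized counts in wild type and 104, 92.6 and 105 in mutant libraries. The groups overlapped at wild type 3 and mutant 2 (log2 fold change 0.15, SE 0.26, 95% interval -0.40 to 0.70, edgeR adjusted p = 0.71). *Mga* (ENSMUSG00000033943, chromosome 2, 119722964 to 119795317) encodes the large dual-specificity partner that carries both a T-box and a MAX-binding domain. It had 896, 745 and 683 in wild type and 684, 655 and 779 in mutants, with wild type 1 the highest and the rest intermixed. Its log2 fold change was -0.13 (SE 0.13, 95% interval -0.41 to 0.14, edgeR adjusted p = 0.47), and relative to the median of all tested genes it stood at -0.09 without and -0.05 with the length correction.

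**Figure D3:**
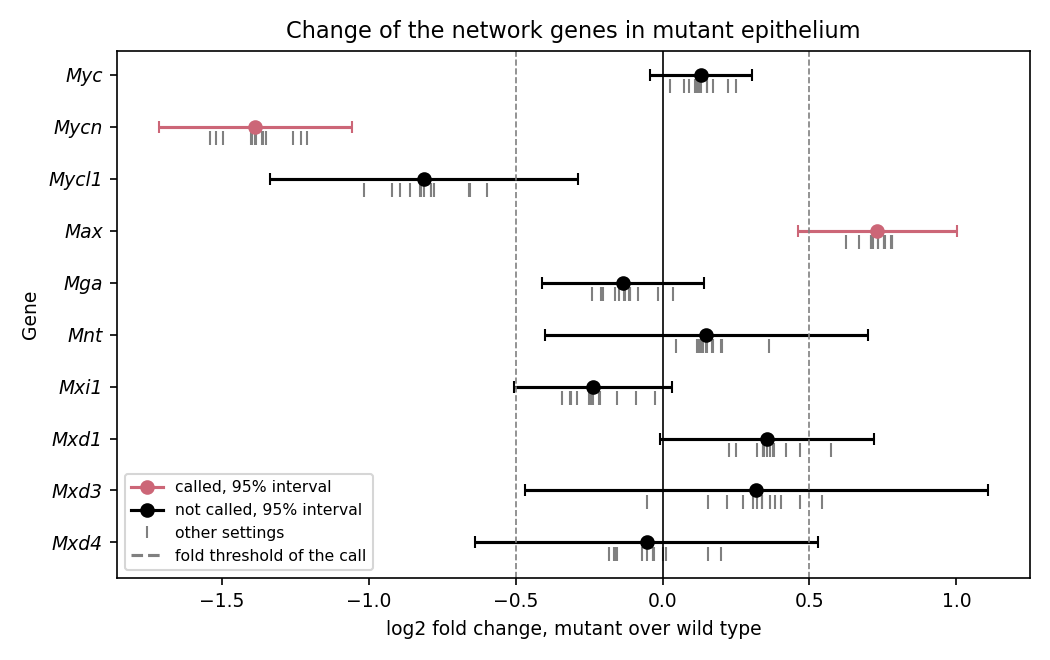
Log2 fold change of each member, mutant over wild type, with its 95% interval from edgeR's quasi-likelihood fit. Grey ticks give the values under the 13 alternative settings and dashed lines the fold threshold of 0.5. *Mycn* at -1.39 and *Max* at 0.73 are the called genes, and their ticks stay past the threshold.

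Within single libraries, *Max* gained on its repressor partners. The summed per-kb level of *Mxi1*, *Mxd1*, *Mxd3*, *Mxd4* and *Mnt* was 20.5, 18.7 and 18.9 in the wild type libraries, in order of number, against 19.99, 15.6 and 20.5 in the mutants, with overlap between groups. The level of *Max* was 0.60, 0.64 and 0.54 of this sum in wild type and 0.99, 1.26 and 0.87 in mutant libraries. The log2 difference of the ratio was 0.79, a ratio 1.73-fold higher, and every mutant library was above every wild type library (exact two-sided permutation p = 0.1, the smallest possible here).

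In wild type epithelium the per-kb levels fell in the order *Myc*, *Mycn*, *Mxi1* (12.6), *Max* (11.5), *Mxd1* (2.97), *Mga* (2.59), *Mycl1* (2.31), *Mxd4* (1.43), *Mxd3* (1.39) and *Mnt* (1.003). The neighbours *Mxi1* and *Max*, *Mxd1* and *Mga*, *Mga* and *Mycl1*, and *Mxd4* and *Mxd3* overlapped between libraries. *Myc* was higher per kb than 95.1% of the 11874 tested genes with a known exon length, *Mycn* higher than 78.4% and *Max* higher than 60.7%, whereas *Mnt* was higher than 18.9%. In the mutants *Max* (19.1) stood next after *Myc*, followed by *Mycn* (11.7) and *Mxi1* (10.7), which overlapped.

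Of all tested genes 2.78% were called higher and 5.83% lower, and these shares stand beside each list of genes below. In lists of 3 to 17 genes, 0 calls are near these shares. In the MLX branch, a parallel set of MAX-like factors that sense glucose, 0 of 3 genes were called by edgeR or by DESeq2. At an unadjusted p under 0.05, *Mlx* had a log2 fold change of 0.33 and *Mlxipl*, which encodes ChREBP, of -0.67 in edgeR. Of 17 genes for MYC cofactors, 0 were called by either tool, with 4 higher and 3 lower at an unadjusted p under 0.05. Of all tested genes 18.6% were higher and 21.6% lower at that p. The cofactor genes had a median log2 fold change of -0.02 beside -0.04 for all tested genes. The helicase subunits *Ruvbl1* (0.31, adjusted p = 0.0047) and *Ruvbl2* (0.35, adjusted p = 0.0030) passed the adjusted p but not the fold. When libraries were scaled by size alone, 2 cofactor genes were called lower, with the length correction 1 was called higher, and without wild type 3 1 was called higher and 1 lower. For MGA's Polycomb complex PRC1.6, 0 of 12 genes were called by either tool, with 3 higher and 1 lower at an unadjusted p under 0.05 (median 0.08). In this list 1 gene was called lower with no filter on low counts and without wild type 3. The germline genes that this complex is known to silence were mostly at low counts. Of 12 listed, 4 were tested and 0 called by either tool, 1 being higher at an unadjusted p under 0.05.

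Among 12 genes for the corepressors of the MXD proteins and MNT, 1 was called higher and 0 lower, with a median log2 fold change of 0.17. At an unadjusted p under 0.05, 7 were higher and 0 lower, where 18.6% and 21.6% of all tested genes were. The 7 became 2, with 1 lower, when libraries were scaled by size alone. For 9 of the 12 the groups did not overlap, against 43.0% of all tested genes. *Rbbp7* (0.40, edgeR adjusted p = 5.4e-04) passed the adjusted p but not the fold. The called gene was *Ing2*, a subunit of the SIN3 deacetylase complex, with 755, 791 and 755 normalized counts in wild type and 1141, 1134 and 1167 in the mutants (log2 fold change 0.58, SE 0.10, edgeR adjusted p = 6.7e-04). When libraries were scaled by size alone the value was 0.48, short of a call. Among 18 genes that control the turnover of MYC proteins, 1 was called higher and 0 lower (median 0.01). This was *Aurka*, the mitotic kinase that protects N-MYC from degradation, with 3257, 3214 and 4243 in wild type and 6218, 6631 and 5466 in mutants (log2 fold change 0.77, SE 0.10, edgeR adjusted p = 6.2e-05). *Aurka* is also a mitotic gene, and in a list of 12 proliferation genes 3 were called higher (*Ccnb1*, *Top2a* and *Cdk1*) and *Mcm2* lower. The call of *Cdk1* held under all 13 alternatives. That of *Ccnb1* was lost when libraries were scaled by size alone and without wild type 1, that of *Top2a* at the same scaling and without wild type 2 or mutant 1, and that of *Mcm2* with the length correction and where wild type 1, wild type 2 or mutant 2 was left out.

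Known MYC targets in ribosome biogenesis were more often higher than lower at an unadjusted p, by less than the fold of a call. Of 30 ribosome biogenesis genes, 0 were called by edgeR or DESeq2 at the fold of 0.5, and 17 were higher and 2 lower at an unadjusted p under 0.05 in both. In edgeR 18.6% of all tested genes were higher and 21.6% lower at that p. For 17 of the 30 the groups did not overlap, against 43.0% of all tested genes. The median log2 fold change of the 30 was 0.25, beside -0.04 for all tested genes. With no minimum fold, 12 of the 30 passed the adjusted p of 0.01 as higher and 0 as lower, where 7.22% of all tested genes were higher. They include *Ncl*, which encodes nucleolin, with 35972, 34184 and 33817 normalized counts in wild type and 47486, 44468 and 47392 in mutants (log2 fold change 0.42, SE 0.06, edgeR adjusted p = 1.1e-04). In contrast, *Fbl* (-0.04), *Nop56* (0.01) and *Bop1* (-0.08), which serve the same process, were close to 0. The count of 12 became 5 when libraries were scaled by size alone, 6 with a replicate block and 17 with the length correction. It was 4 without wild type 1, 4 without wild type 2, 2 without mutant 1, 5 without mutant 2 and 5 without mutant 3. The median stayed above 0 under each of these. At the fold of 0.5, 7 were called higher with the length correction, under which calls higher among all genes rose from 348 to 728. Without wild type 3, 2 were called higher and 1 lower, and without mutant 2, 1 was called higher.

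**Figure D4:**
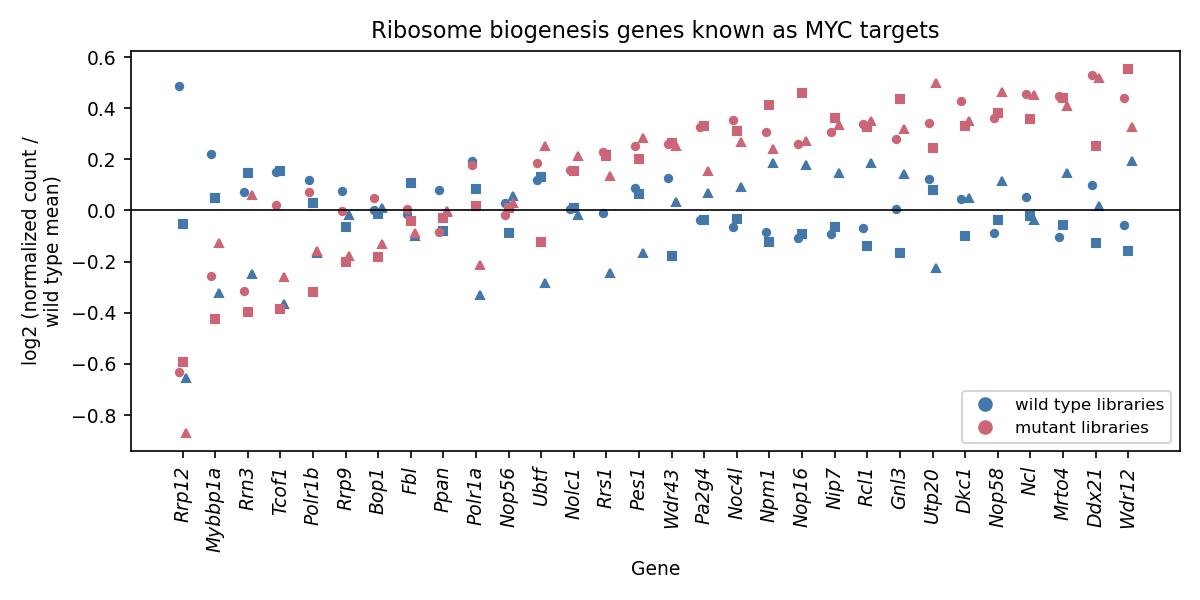
For each of 30 ribosome biogenesis genes known as MYC targets, the log2 of the normalized count in each library over the wild type mean, with wild type libraries in blue and mutant libraries in red, ordered by log2 fold change. The mutant libraries lie above the wild type libraries for most genes on the right, and the groups are mixed on the left.

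Of 33 tested targets in metabolism and growth, 2 were called higher and 1 lower (median log2 fold change 0.20). The 2 became 3 with DESeq2, with RLE normalization or without mutant 3, 4 without wild type 3 and 7 with the length correction. At an unadjusted p under 0.05, 18 of the 33 were higher and 3 lower, where 18.6% and 21.6% of all tested genes were. With no minimum fold, 11 passed the adjusted p as higher and 1 as lower, against 7.22% and 7.00% of all tested genes. The 11 became 7 with library size only, 3 without wild type 1 and 19 without wild type 3. For 22 of the 33 the groups did not overlap, against 43.0% of all tested genes. *Tfrc*, the transferrin receptor gene, had 16290, 15268 and 19361 normalized counts in wild type and 26661, 26403 and 28563 in the mutants (log2 fold change 0.68, SE 0.08, edgeR adjusted p = 1.9e-05). The amino acid transporter gene *Slc7a5* had 656, 800 and 580 in wild type and 517, 421 and 409 in mutants, the groups being apart by a small margin (log2 fold change -0.60, edgeR adjusted p = 0.0080). Its call was lost without wild type 1, without wild type 2, without mutant 2 or without mutant 3 (adjusted p from 0.0237 to 0.0563) and with the length correction. *Odc1* (0.37) and *Srm* (0.49), of polyamine synthesis, passed the adjusted p but not the fold.

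Of 10 genes that MYC is known to repress, 0 were called higher and 1 lower (median 0.02). The called gene was *Cdkn2b*, an inhibitor of CDK4 and CDK6, with 493, 556 and 511 normalized counts in wild type and 361, 325 and 355 in the mutants (log2 fold change -0.58, SE 0.14, edgeR adjusted p = 0.0060). Its call was lost with a replicate block (adjusted p = 0.0126) and without wild type 1, wild type 2, mutant 1, mutant 2 or mutant 3, where the adjusted p lay between 0.0168 and 0.0303. Of the uncalled genes, *Cdkn1a*, which encodes p21, had a log2 fold change of -0.29 and *Gadd45a*, a growth arrest gene, of 0.49, each with an adjusted p of 0.029 and no overlap between groups.

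**Figure D5:**
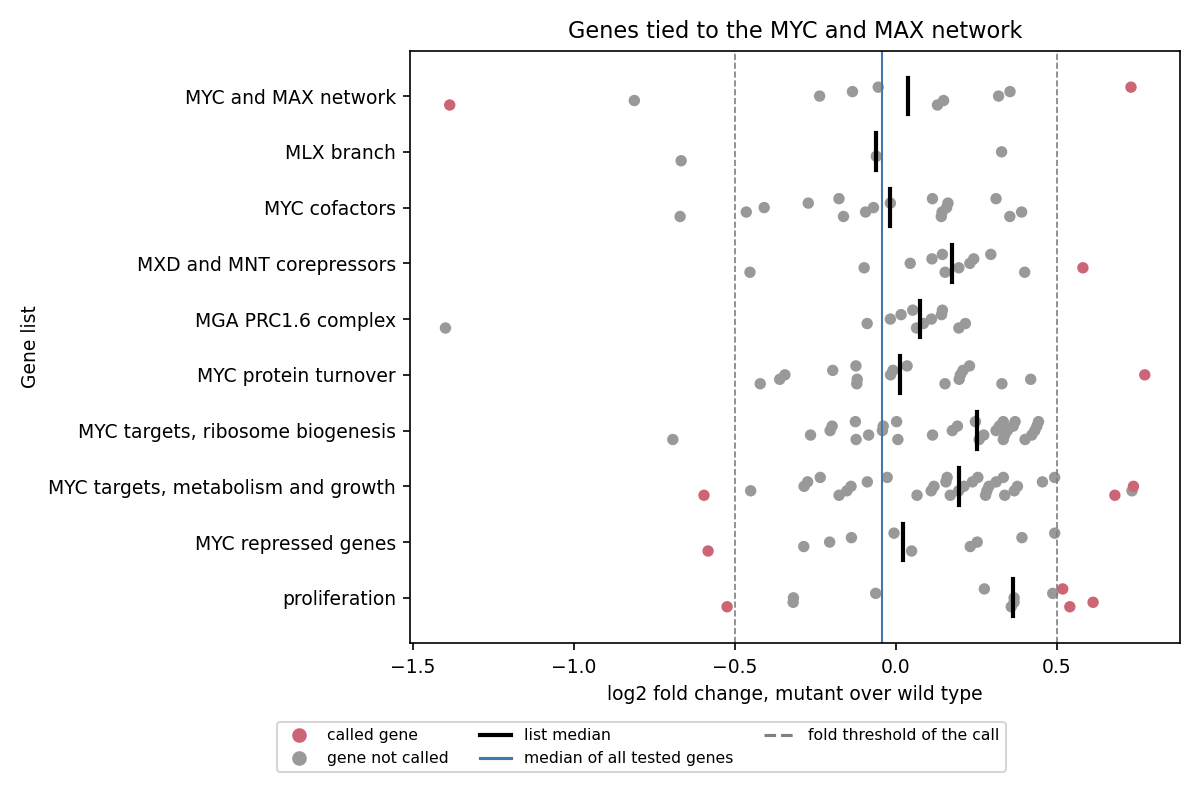
Log2 fold changes of the tested genes in the network and in lists of genes tied to it, with a black bar at the median of each list, a blue line at the median of all tested genes (-0.04) and red for called genes. The median of every list shown but the MLX branch lies to the right of the blue line, from -0.02 for the cofactors to 0.36 for the proliferation genes, and few single genes pass the dashed fold threshold.

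Genes used as markers of other cell types were set beside *Mycn*, some of which, such as *Foxa2* and *Rfx6*, are also known from embryonic gut epithelium at large. The summed level of 15 gastric epithelium genes was 149 to 156 CPM in wild type against 72.5 to 78.6 in the mutants, and that of 17 enteroendocrine genes 67.5 to 123 and 24.8 to 31.2. In these lists 11 gastric and 5 enteroendocrine genes were tested. Of these, 4 gastric genes (*Nkx6-3*, *Cldn18*, *Vsig1* and *Gata5*) and 2 enteroendocrine genes (*Foxa2* and *Rfx6*) were called lower by edgeR and by DESeq2. Among all tested genes 5.83% were called lower. In both lists 0 genes were called higher by either tool, and 0 were higher at an unadjusted p under 0.05. The call of *Gata5* was lost with the length correction and where wild type 1, wild type 2 or mutant 3 was left out. The part of these genes in the lower *Mycn* was not tested, and in bulk libraries fewer cells of a type cannot be told apart from less RNA in each cell. The sums of the other lists were 68.0 to 82.7 in wild type and 53.7 to 75.9 in mutants for 13 mesenchyme genes, 13.1 to 18.2 and 12.7 to 18.01 for 12 neural crest genes, 3.32 to 5.45 and 2.95 to 5.94 for 9 blood genes, and 0.67 to 1.48 and 0.74 to 1.91 for 7 endothelium genes. The groups overlapped in each of these. The blood genes *Ptprc*, *Hba-a1*, *Hbb-b1* and *Hbb-bh1*, the endothelium genes *Cdh5*, *Kdr* and *Tek*, the neural crest gene *Elavl3* and the enteroendocrine gene *Gcg* were at 0 counts in every library. The 10 genes of intestinal epithelium, all tested, summed to 8432 to 8978 and 8221 to 8433. Of these *Krt18*, *Cdh1* and *Cdx2* were called lower, beside 5.83% of all tested genes. The call of *Krt18* was lost without wild type 3 or mutant 3. That of *Cdh1* was lost without wild type 2 or mutant 2 and with the length correction. That of *Cdx2* was lost where wild type 1, wild type 2, mutant 1 or mutant 2 was left out. *Epcam* (log2 fold change 0.25, edgeR adjusted p = 0.013) and *Cldn7* (0.24, adjusted p = 0.0091) were not called, with every mutant library above every wild type library.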

How the data were processed

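The authors made cDNA from sorted cells, sequenced it on a NextSeq 500, mapped reads to mm9 with STAR 2.5.2b and, from reads with a unique position, obtained gene counts with featureCounts 1.5.1 on the UCSC gene model. They deposited raw counts, 1 table for each of 6 libraries, and the use of strand in counting is not given in the sources used here. Genes were tested with edgeR 4.0.16 (R 4.3.3) by TMM normalization, filterByExpr and a quasi-likelihood test on genotype, with Benjamini-Hochberg adjustment over 12501 genes. SE is the log2 fold change divided by the root of F. Normalized counts are scaled to the mean effective library size, and per-kb levels use union exon lengths of GENCODE vM1 (NCBIM37, the assembly of mm9), which may differ from the counted model. Ratios were tested by exact permutation (scipy 1.17.1). Figures used matplotlib 3.10.9 in Python 3.11.15.

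The members and lists were chosen with earlier results of these data known. The text names all members, the genotype checks *Tcf7l1* and *Shh*, and up to 4 called genes in each direction of a list. A called gene of the metabolism and growth list is not reported here by name. Uncalled list genes, and the sex-linked genes, were chosen after their values were seen. The symbols *Pkm2* and *Foxf1a* were not matched in the tables. *Wdr5*, *Hdac1* and *Hdac2* stand in 2 lists each. *Shh* had 481 ± 65.8 normalized counts in wild type and 198 ± 22.6 in mutant libraries. Exons of *Gm10197* and *Prelid1* on the opposite strand overlap 3.45% of the exon bases of *Mxi1* and 5.00% of those of *Mxd3*. BLAST+ 2.17.0 found 0 near-identical copies of any member (at least 95% identity over 50% of the longest transcript). Chi-square per gene lay between 6.30 and 17.9 within groups, so no library was a second sequencing of another. This value cannot exclude that separate libraries were made from the same embryo. The length correction, an alternative, removed from each library a loess curve (span 0.5) of log2 CPM deviations on log2 exon length, by offsets in the edgeR fit. DESeq2 1.42.0 and the other alternatives are given with the limits.

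On simulated counts for 12501 genes, with changed genes of at least 50 mean counts, the edgeR test found, at an adjusted p under 0.01, 8% of genes changed by 0.5 on the log2 scale, 48% at 0.75, 88% at 1 and 100% at 1.5. Only 50 genes were changed at each size. In the data 7.22% of tested genes were higher and 7.00% lower at that adjusted p and the mean count of a call. With more changed genes the adjustment is less strict, so these shares may understate what the test finds in the data.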

Additional observations from a re-analysis of the deposited data

How the results depend on the processing

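*Mycn* stayed called lower and *Max* higher under all 13 alternatives (DESeq2, RLE normalization, library size only, no filter, a filter at a mean of 50 counts, a replicate block, the length correction and each of 6 libraries left out), and no other member was called in any. The log2 fold change of *Mycn* lay between -1.54 and -1.23 and that of *Max* between 0.67 and 0.78 with a library left out. Signs turned for *Mga* (0.034) and *Mxd4* (0.16) with the length correction, which raised the median of all genes; relative to that median *Mga* stayed negative (-0.05). With a library left out, *Mxd4* lay between -0.18 and 0.20 and *Mxd3* between -0.053 (without mutant 1) and 0.54. The ratios were recomputed with library size scaling and no exon length, and with each library left out, and kept their direction in these.

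The 348 genes higher became 200 with library size only, 728 with the length correction, 902 with no minimum fold and 85 where the log2 fold change had to reach 1 in size, and lay between 260 and 516 with a library left out. The 729 genes lower became 416 with the length correction and 284 at the fold of 1, and lay between 405 (without wild type 1) and 867 (without wild type 3); they were 406 without wild type 2 and 463 without mutant 2. Calls that were higher made up 32.3%, against 17.3% with library size only, which moved the median of all genes from -0.04 to -0.15, and 63.6% with the length correction, which moved it to 0.09.

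Same-numbered libraries did not deviate together (correlations 0.0097, -0.0449 and -0.0179), so these values give no sign of pairing by number. With so few libraries they cannot exclude a shared litter or batch. The replicate block gave -1.39 for *Mycn*, 0.73 for *Max*, 339 genes higher and 691 lower. *Mxd3*, *Mxd4* and *Mnt*, at 44 to 154 counts per library, are the least precise members.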
